A study of Mus musculus with 36 samples.

Results

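The 9 genes described here build or report the B cell receptor: Rag1, Rag2 and Dntt, which assemble and diversify its gene segments, Vpreb1 and Igll1, which encode the surrogate light chain, Cd79a and Cd79b, its signalling chains, Cd22, an inhibitory co-receptor, and Blnk, an adaptor. They were chosen by name from the 27179 genes of the count table, and all 9 were found there and passed the filter on low counts. RNA sequencing covered 36 libraries from 3 mouse lymphoma lines, AH47A (also labelled 47A), 287 and 621, all of Em-myc background, in which a Myc transgene under an immunoglobulin heavy chain enhancer gives B lineage tumours. In each line 6 cultures carried a construct, either a negative control or a mutant TRP53 protein, which the series calls human. The 5 mutants are labelled V170M, I192S, R246Q, R270H and G280. Each culture was sampled untreated and after 12 hours with 5 µM nutlin-3a, a small molecule that releases p53 from MDM2, given together with 25 µM of the caspase inhibitor QVD-OPH. The sources used here do not say whether untreated cultures received QVD-OPH, so the response called a nutlin response can hold both agents. Each of the 6 groups of line and treatment thus held 6 libraries that differ in construct, and the labels name no repeat culture of a construct. Each line is a single line, so the tests measure the spread between cultures of that line and do not extend to other tumours.

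As background, RAG1 and RAG2 form the recombinase that cuts antigen receptor gene segments, and the terminal transferase encoded by Dntt adds untemplated bases at the joints. In the pro-B cell the heavy chain locus is assembled. Its product then pairs with the surrogate light chain of VPREB1 and IGLL1 (lambda 5) and with CD79A and CD79B to form the pre-B cell receptor, which signals through SYK and BLNK. In large cycling pre-B cells the recombinase is turned down, and in small pre-B cells it returns for light chain assembly while the surrogate light chain is lost. Immature and mature B cells carry surface immunoglobulin with a true light chain, and mature cells also make IgD and more CD22.

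Several of the 9 genes are neighbours. On GRCm38, Rag2 (chr2:101624712-101632528, plus strand) and Rag1 (chr2:101638252-101649532, minus strand) lie 5723 bases apart and point towards each other. Igll1 (chr16:16860671-16863985) and Vpreb1 (chr16:16868401-16869255) are both on the minus strand with 4415 bases between them. Blnk (chr19:40928927-40994221) is on the minus strand and Dntt (chr19:41029275-41059525) on the plus strand of chromosome 19. Cd79a (chr7:24897497-24901858) and Cd22 (chr7:30865404-30880342) are on chromosome 7, and Cd79b (chr11:106311341-106314562) is on chromosome 11. No source used here gives the strand setting of the counting, so reads cannot be told apart where GENCODE places another gene on the opposite strand. This holds for Vpreb1, of which 108 bases lie over Top3b, for Cd22, of which 601 bases lie over Gm29439, and for Rag2, of which 7812 bases lie in the span of B230118H07Rik. Rag1 lies in the span of the same gene on its own strand. Vpreb1 also has a near-identical copy, Vpreb2, and its counts are uncertain for that reason.

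The 250 bases before the start of Rag1, Rag2, Vpreb1 and Igll1 are shown because these genes were near 0 in 1 line and high in another. They were taken from RefSeq (GRCm38), which matched 8 of the 9 genes, and run 5′ to 3′ on the strand of the gene. Rag1 is chr2:101649533-101649782 (minus), Rag2 is chr2:101624462-101624711 (plus), Vpreb1 is chr16:16869256-16869505 (minus) and Igll1 is chr16:16863986-16864235 (minus). Capitals mark matches, on either strand, to an E-box of the E2A type (CAGGTG) or to the EBF-type letters CCCNNGGG.
Rag1: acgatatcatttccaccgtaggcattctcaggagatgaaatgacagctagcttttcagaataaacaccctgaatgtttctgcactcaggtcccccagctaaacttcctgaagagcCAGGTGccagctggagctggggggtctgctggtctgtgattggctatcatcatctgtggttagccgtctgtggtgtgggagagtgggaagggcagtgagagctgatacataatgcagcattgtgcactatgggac
Rag2: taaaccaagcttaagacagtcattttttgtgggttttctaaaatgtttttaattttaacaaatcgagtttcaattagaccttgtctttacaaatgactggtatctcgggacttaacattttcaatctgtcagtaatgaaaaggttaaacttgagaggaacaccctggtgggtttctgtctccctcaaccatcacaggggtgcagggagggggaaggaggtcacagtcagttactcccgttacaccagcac
Vpreb1: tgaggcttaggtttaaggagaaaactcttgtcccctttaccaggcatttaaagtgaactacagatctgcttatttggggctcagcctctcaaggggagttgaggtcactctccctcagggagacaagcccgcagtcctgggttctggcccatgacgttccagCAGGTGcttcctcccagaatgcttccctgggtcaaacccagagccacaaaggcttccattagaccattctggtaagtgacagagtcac
Igll1: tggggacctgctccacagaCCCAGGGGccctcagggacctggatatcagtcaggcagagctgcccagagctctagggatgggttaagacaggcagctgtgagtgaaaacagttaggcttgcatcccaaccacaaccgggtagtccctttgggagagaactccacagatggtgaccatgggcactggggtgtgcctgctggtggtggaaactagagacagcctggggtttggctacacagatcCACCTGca
The E-box letters began 135 bases before the start of Rag1, 88 before Vpreb1 and 8 before Igll1, and were not in the window of Rag2. They were also in the windows of Cd79a, Cd22 and Blnk, and in 17.2% of the 32851 promoter windows of the same length. The EBF-type letters were in the windows of Igll1, beginning 231 bases before its start, and Cd22, and in 11.8% of all windows. The octamer ATGCAAAT, searched on both strands, was in the window of Blnk and in 1.6% of all windows. A match is a description of the sequence and not a site of binding.

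The libraries held 5404113 to 10718302 counts, and 11894 genes holding 99.91% of them were tested. The depth-scaled level of Trp53 was higher in 30 of 30 mutant libraries than in the control of the same line and treatment (1.41 to 9.03-fold). The p53 target genes Cdkn1a and Mdm2 were higher after nutlin in 18 of 18 cultures (25.8 to 945-fold and 2.29 to 8.21-fold). Markers of other cell types were low. Summed over its list, the erythroid level was at most 4.44 CPM (counts scaled to library size) and the stromal level at most 3.33 CPM in any library. The T cell list reached 115 CPM untreated and 124 CPM after nutlin in 621, of which Cd2 alone gave up to 123 CPM. Cd4 had 0 counts in all libraries, and Cd3e had 0 counts in 5 of the 6 groups and 2 counts in the other. The myeloid list reached 58.3 CPM in 287 after nutlin, of which Itgam gave up to 49.1 CPM, while Lyz2 was at most 0.25 CPM in any library. Whether Cd2 or Itgam came from other cells was not tested.

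Before treatment the 3 lines differed most in the recombinase and the surrogate light chain. AH47A had the surrogate light chain and almost no Rag1 or Rag2, 621 had Rag1 and Rag2 and almost no surrogate light chain, and 287 had all 4. Of the 9 genes, 2 were called higher and 4 lower in 287 than in AH47A, where 30.2% of all tested genes were called higher and 29.6% lower. In 621 against AH47A, 5 were called higher and 2 lower (28.2% and 31.1% of all genes). In 621 against 287, 6 were called higher and 2 lower (29.0% and 32.4% of all genes). A call here is an edgeR adjusted p under 0.05, and changes are log2 values ± standard error.

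**Figure D1:**
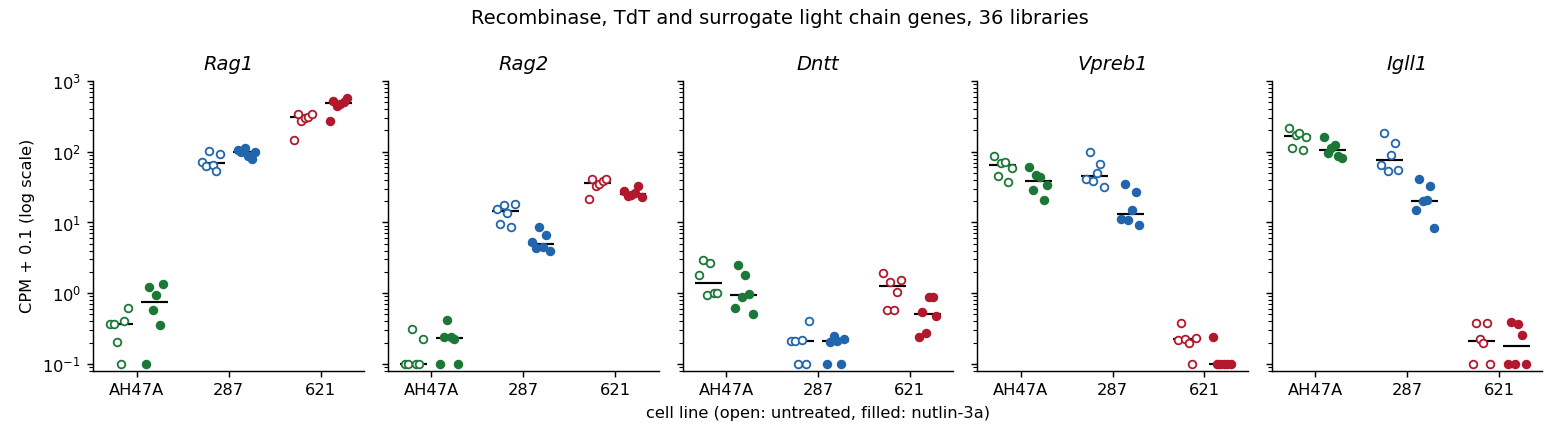
Level of each gene in every library (CPM + 0.1, log scale), by line; open circles are untreated, filled circles nutlin-3a, each circle is 1 construct and bars are group medians (n = 6). Untreated AH47A lies at 0 to 0.51 CPM for Rag1 and 621 at 0 to 0.284 CPM for Igll1, while 287 has both.

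Rag1 was counted at 0 to 0.51 CPM in the 6 untreated AH47A libraries (median 0.269), 53.1 to 101 CPM in 287 (median 68.9) and 145 to 344 CPM in 621 (median 307). The 3 ranges did not overlap. Over the group, AH47A had 11 Rag1 counts against 3841 in 287 and 16143 in 621. Scaled for depth, that is a ratio of 315 for 287 (95% counting interval 176 to 632) and 1230 for 621 (686 to 2460). The level in 621 was also above 287 by log2 1.92 ± 0.17 (adjusted p = 2.12e-09). Counting intervals cover counting error only.

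Rag2 showed the same order of lines at a lower level. AH47A had 3 counts over 6 libraries, 287 lay between 8.42 and 17.9 CPM (median 14.5) and 621 between 21.1 and 40.8 CPM (median 36.7). The ratio to AH47A was 211 in 287 (95% counting interval 71.8 to 1020) and 546 in 621 (186 to 2650). The difference of 621 from 287 was log2 1.35 ± 0.17 (adjusted p = 5.76e-08). Per base of counted length, Rag2 was below Rag1 in every library of 287 and 621, with a median ratio of 0.356 and 0.235 before treatment.

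Dntt was near the detection limit in every line. The 6 untreated libraries held 75 counts in AH47A, 5 in 287 and 57 in 621. The highest single library was AH47A with I192S at 2.86 CPM. Dntt was lower in 287 than in AH47A (a ratio of AH47A to 287 of 16.6, 95% counting interval 6.82 to 52.7) and 621 did not differ from AH47A by the test (log2 -0.60 ± 0.37, 95% interval -1.36 to 0.17, adjusted p = 0.173).

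The surrogate light chain genes showed the opposite order of lines. Igll1 lay between 107 and 217 CPM in AH47A (median 167), between 52.7 and 186 CPM in 287 (median 77.0) and between 0 and 0.284 CPM in 621, which had 8 counts in all. Vpreb1 lay between 36.8 and 86.0 CPM in AH47A (median 64.5), between 31.3 and 97.6 CPM in 287 (median 45.7) and between 0 and 0.283 CPM in 621, which had 7 counts. AH47A and 287 overlapped for both genes, and 621 stood apart. The ratio of AH47A to 621 was 1120 for Igll1 (95% counting interval 570 to 2600) and 496 for Vpreb1 (240 to 1230). Igll1 was lower in 287 than in AH47A (log2 -0.84 ± 0.29, adjusted p = 0.016), and for Vpreb1 the difference was -0.23 ± 0.31 (adjusted p = 0.529). The Igll1 call was lost without the libraries of G280, control, R246Q or R270H (adjusted p from 0.0648 to 0.101). With only the compared libraries its adjusted p was 0.151.

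**Figure D2:**
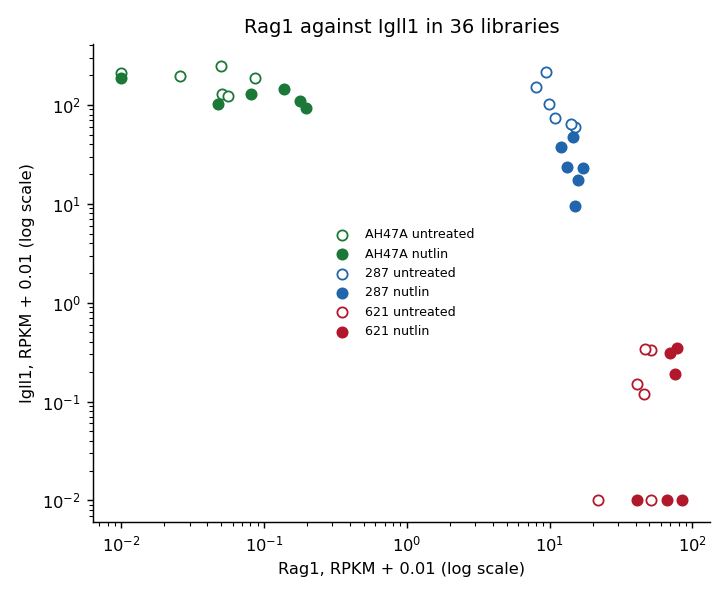
Rag1 against Igll1 in each of the 36 libraries, both per base of gene length (RPKM + 0.01, log axes), coloured by line; open circles are untreated, filled circles nutlin-3a. The lines form 3 separate clouds: AH47A at the upper left (mean untreated Rag1 0.0364 RPKM), 287 at the upper right (11.2 RPKM) and 621 at the lower right (42.9 RPKM).

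The signalling chains Cd79a and Cd79b were high in all 3 lines. Cd79a had 235 ± 15.9 CPM in AH47A, 266 ± 11.4 in 287 and 358 ± 48.4 in 621 (mean ± SD, n = 6). It was higher in 621 than in AH47A (log2 0.60 ± 0.08, adjusted p = 3.89e-07) and 287 (0.42 ± 0.08, adjusted p = 5.63e-05), and 287 against AH47A gave 0.18 ± 0.08 (adjusted p = 0.0597). Cd79b had 238 ± 14.8, 264 ± 12.6 and 256 ± 30.4 CPM, and no pair of lines passed the test (adjusted p from 0.0509 to 0.518). Cd79b had a low G280 library in 621 (198 CPM, the others 253 to 280), and without the G280 libraries 621 against AH47A was called (log2 0.17, adjusted p = 0.0201). Per base, Cd79b to Cd79a was 1.12 in AH47A, 1.11 in 287 and 0.786 in 621 (medians).

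Cd22, whose product damps receptor signals through the phosphatase SHP-1, separated all 3 lines before treatment. It lay between 176 and 197 CPM in 287, 251 and 312 CPM in AH47A and 315 and 411 CPM in 621, and the ranges did not overlap. The log2 difference was 1.03 ± 0.07 for 621 against 287 (adjusted p = 1.26e-13), 0.45 ± 0.07 for 621 against AH47A (adjusted p = 1.58e-06) and -0.59 ± 0.07 for 287 against AH47A (adjusted p = 1.82e-08). Blnk, the adaptor between SYK and phospholipase C gamma, was highest in 621 (264 ± 28.6 CPM), against 209 ± 27.0 in AH47A and 179 ± 12.4 in 287. It was higher in 621 than in AH47A (log2 0.34 ± 0.09, adjusted p = 0.00146) and 287 (0.56 ± 0.09, adjusted p = 3.26e-06). Blnk was lower in 287 than in AH47A (-0.22 ± 0.09, adjusted p = 0.0323), which was lost without the I192S, R270H or V170M libraries (adjusted p from 0.0893 to 0.16).

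**Figure D3:**
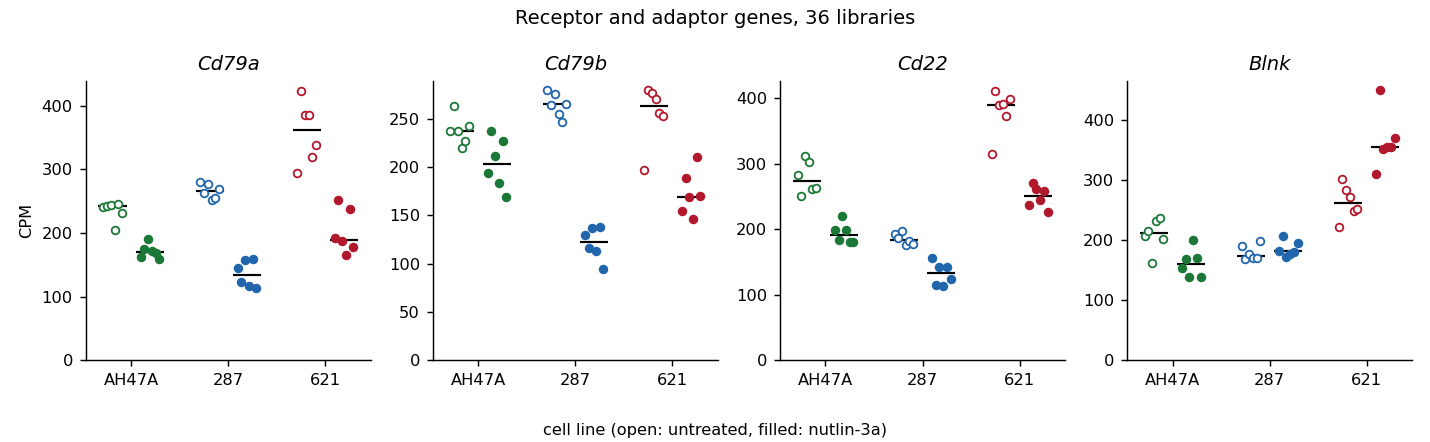
Level of Cd79a, Cd79b, Cd22 and Blnk in every library (CPM, axes from 0), by line; open circles are untreated, filled circles nutlin-3a, each circle is 1 construct and bars are group medians (n = 6). The nutlin libraries of Cd79a and Cd22 lie below the untreated ones in all 3 lines, and those of Blnk lie above them in 621.

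Most of the variance of log2 CPM over the 36 libraries lay between lines for the early genes. Line accounted for 97.8% in Rag1, 96.5% in Rag2 and 95.4% in each of Vpreb1 and Igll1. For Cd79a and Cd79b, treatment accounted for the most, 63.6% and 58.5%. For Blnk, 71.3% lay between lines, 0.355% with treatment and 16.4% with the combination of line and treatment. The construct accounted for at most 4.11% in any of the 9 genes, in Cd79b. The combination of construct and treatment accounted for at most 5.94%, in Dntt.

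After nutlin the receptor chains and Cd22 fell in all 3 lines, and Rag1 and Rag2 moved in opposite directions in 287 and 621. The surrogate light chain genes fell in 287. They were also lower in 6 of 6 constructs of AH47A, where the fit of all 36 libraries did not call them. In AH47A 4 of the 9 genes were called lower and 0 higher, where 21.7% of all tested genes were called lower and 22.4% higher. With each culture of line and construct as a block, 7 members were called in AH47A. In 287, 6 were called lower and 1 higher (37.8% and 35.2% of all genes). In 621, 5 were called lower and 2 higher (27.8% and 28.1% of all genes). An F test of whether the response differs between lines called 5 of the 9 genes, where 62.3% of all genes were called, so that such a difference was common. The other tool, DESeq2, called 5, 6 and 6 members in the responses of AH47A, 287 and 621, and 5 in the comparison of responses.

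**Figure D4:**
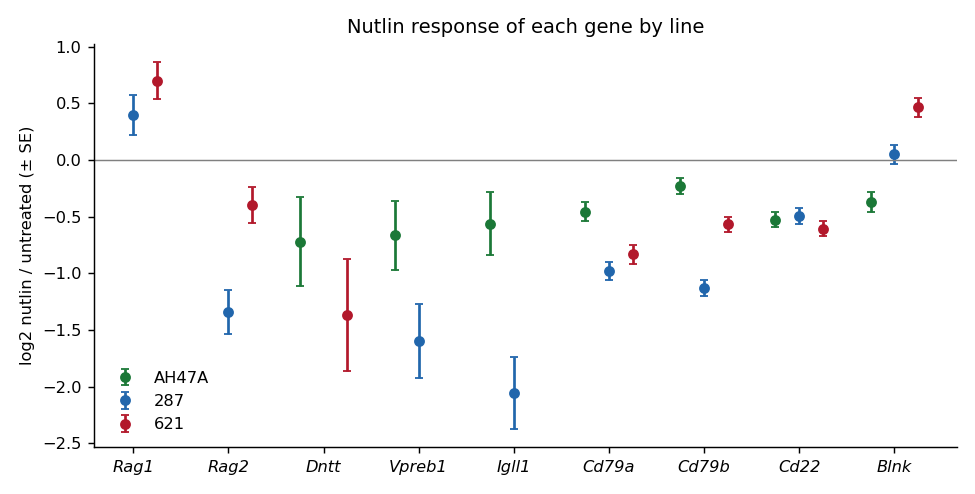
Fitted log2 change from untreated to nutlin-3a (points) ± standard error (bars) for each gene, coloured by line; combinations with at most 31 counts in both groups of 6 libraries (Rag1 and Rag2 in AH47A, Dntt in 287, Vpreb1 and Igll1 in 621) are left out. Cd79a, Cd79b and Cd22 lie below 0 in every line, and Rag1 lies above 0 while Rag2 lies below it in 287 and 621.

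Rag1 rose in 621, from 145 to 344 CPM before to 273 to 568 CPM after nutlin (median 307 and 485), by log2 0.70 ± 0.16 (adjusted p = 8.69e-04). It was higher in 6 of 6 constructs, although the groups overlapped. In 287 it went from a median of 68.9 to 98.9 CPM, also higher in 6 of 6 constructs (0.40 ± 0.17, adjusted p = 0.0451). The call in 287 was lost with DESeq2 (adjusted p = 0.188), without a filter on low counts (0.0593), without construct terms (0.0544) and without the I192S, R270H or V170M libraries (0.125, 0.0943 and 0.0863). AH47A had 11 Rag1 counts before and 31 after nutlin, a ratio of 2.85 (95% counting interval 1.40 to 6.29). Rag1 was higher in 4 of 6 AH47A constructs, and the change was not called with edgeR (adjusted p = 0.291) but was with DESeq2 (0.0429) and with each culture as a block (0.0262). The F test of the responses of the 3 lines gave an adjusted p of 0.39, and 0.0136 with each culture as a block.

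Rag2 fell in 287, from 8.42 to 17.9 CPM before to 3.91 to 8.50 CPM after nutlin (median 14.5 and 4.83). The change was log2 -1.34 ± 0.19 (adjusted p = 5.75e-07), lower in 6 of 6 constructs. In 621 it fell by 0.40 ± 0.16 on the log2 scale (adjusted p = 0.0356), from a median of 36.7 to 25.3 CPM, lower in 5 of 6 constructs. The exception was G280, which went from 21.1 to 27.7 CPM. The call in 621 was lost with DESeq2 (adjusted p = 0.0987) and without the I192S (0.116), control (0.148) or R270H (0.089) libraries. The response of 621 was less negative than that of 287 by log2 0.94 ± 0.25 (adjusted p = 0.00313). In AH47A, Rag2 had 3 counts before and 5 after nutlin, too few for a comparison.

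Because both genes were measured in the same library, the ratio of Rag2 to Rag1 per base does not depend on the scaling between libraries. In 287 it went from 0.299 to 0.417 before to 0.0768 to 0.164 after nutlin, without overlap. In 621 it went from 0.229 to 0.287 to 0.0801 to 0.199, also without overlap. The ratio was lower after nutlin in 6 of 6 constructs of both lines. The two-sided exact permutation test over paired constructs gave p = 0.03125, the smallest that 6 pairs can give, and 0.0446 adjusted over 10 such ratio tests.

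**Figure D5:**
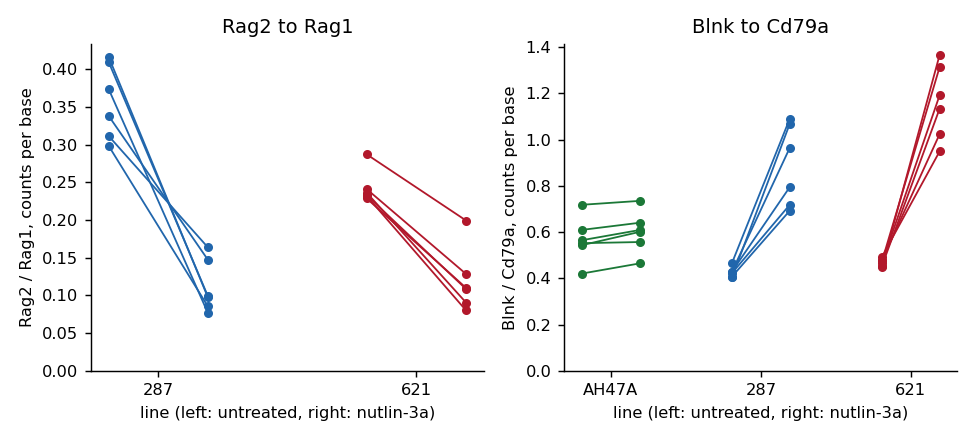
Ratios of counts per base within a library, Rag2 to Rag1 (left) and Blnk to Cd79a (right); each line joins the untreated (left point) and nutlin-3a (right point) library of 1 construct, and axes start at 0. Every Rag2 to Rag1 line goes down in 287 and 621, and every Blnk to Cd79a line goes up, by a mean log2 of 0.09 in AH47A, 1.03 in 287 and 1.30 in 621.

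Dntt fell in 621 from 57 to 18 counts over the 6 libraries (log2 -1.37 ± 0.49, adjusted p = 0.0198). It was lower in 5 of 6 constructs, and the call was lost without the G280 (adjusted p = 0.168), control (0.0555) or R246Q (0.0683) libraries. In AH47A it had 75 and 49 counts (-0.72 ± 0.39, adjusted p = 0.138).

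The surrogate light chain genes fell together in 287. Igll1 lay between 52.7 and 186 CPM before and between 8.30 and 41.6 CPM after nutlin (median 77.0 and 20.3), without overlap (log2 -2.05 ± 0.32, adjusted p = 5.1e-06). Vpreb1 went from a median of 45.7 to 13.0 CPM (-1.60 ± 0.33, adjusted p = 1.66e-04), with groups that overlapped. Both were lower in 6 of 6 constructs. In AH47A, Igll1 went from a median of 167 to 105 CPM (-0.56 ± 0.28, adjusted p = 0.113) and Vpreb1 from 64.5 to 38.6 CPM (-0.66 ± 0.31, adjusted p = 0.0862), and neither passed the test, although each was lower in 6 of 6 constructs. With only the AH47A libraries in the fit, both were called (adjusted p = 3.7e-04 for Igll1 and 1.36e-06 for Vpreb1). The response of Igll1 was more negative in 287 than in AH47A by -1.49 ± 0.43 (adjusted p = 0.00636), while the F test over the 3 lines gave 0.0149, and 0.0625 without the R270H libraries. For Vpreb1 that F test gave 0.19. With each culture of line and construct as a block, Igll1 (adjusted p = 1.7e-04) and Vpreb1 (adjusted p = 4e-08) were called lower in AH47A, and the F test called Vpreb1 (adjusted p = 1.47e-07). In 621 both genes were too low to compare, with 8 and 5 counts of Igll1 and 7 and 1 of Vpreb1.

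Cd79a fell in every line, by log2 0.46 ± 0.08 in AH47A (adjusted p = 7.04e-05), 0.98 ± 0.08 in 287 (adjusted p = 4.23e-11) and 0.83 ± 0.08 in 621 (adjusted p = 3.79e-09). The untreated and nutlin ranges did not overlap in any line, for example 251 to 280 and 114 to 159 CPM in 287. The response was more negative in 287 and 621 than in AH47A (by -0.52 ± 0.12, adjusted p = 5.92e-04, and -0.38 ± 0.12, adjusted p = 0.0144). Cd79b fell by 1.13 ± 0.07 in 287 (adjusted p = 2.05e-14), 0.57 ± 0.07 in 621 (adjusted p = 8.25e-08) and 0.23 ± 0.07 in AH47A (adjusted p = 0.00756) on the log2 scale. The AH47A call was lost without the control libraries (adjusted p = 0.0609), and within AH47A the V170M culture had 227.3 CPM before and 227.2 CPM after nutlin. Every pair of lines differed in the Cd79b response (adjusted p from 1.81e-08 to 0.00868).

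The 2 partner chains moved by unequal amounts. Per base, Cd79b to Cd79a was lower after nutlin in 6 of 6 constructs in 287 (median 1.11 to 0.972) and higher in 6 of 6 in 621 (0.786 to 0.983), each with an exact permutation p = 0.03125, adjusted 0.0446. In AH47A it was higher in 5 of 6 (1.12 to 1.28, exact permutation p = 0.0625, adjusted 0.0781).

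Cd22 fell by a like amount in all 3 lines, by log2 0.53 ± 0.07 in AH47A (adjusted p = 4.4e-07), 0.49 ± 0.07 in 287 (adjusted p = 3.04e-07) and 0.60 ± 0.07 in 621 (adjusted p = 1.75e-08). Untreated and nutlin ranges did not overlap in any line. No difference between lines was detected (F test adjusted p = 0.543), and the largest pairwise difference, 621 against 287, was -0.11 with a 95% interval of -0.31 to 0.08.

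Blnk fell in AH47A, rose in 621 and was not called in 287. It fell in AH47A (log2 -0.37 ± 0.09, adjusted p = 0.00116), from a median of 212 to 161 CPM, lower in 6 of 6 constructs. It rose in 621 (0.46 ± 0.09, adjusted p = 4.77e-05), from 222 to 303 CPM before to 310 to 450 CPM after nutlin, without overlap. In 287 the change was 0.05 ± 0.09 (95% interval -0.13 to 0.23, adjusted p = 0.605), with 3 constructs higher and 3 lower. Each pair of lines differed (adjusted p from 1.31e-05 to 0.00724). With Cd79a lower in every line, Blnk was higher relative to Cd79a per base in 18 of 18 cultures, from a median of 0.426 to 0.879 in 287 and 0.469 to 1.16 in 621. In AH47A the ratio went from 0.558 to 0.605 (exact permutation p = 0.03125, adjusted 0.0446, in each line).

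Few differences between constructs passed the test in these genes. Each construct has 1 library per line and treatment, so tests of constructs rest on 3 lines, and all mutants were set against the same control libraries. Untreated, the mean of the 5 mutants minus control gave 0 calls among the 9 genes with edgeR and with DESeq2, and 0 at an unadjusted edgeR p under 0.05, where 0.00841% of all genes were called higher and 0.00841% lower. The differences ran from log2 -0.39 ± 0.22 in Rag1 to 0.43 ± 0.42 in Vpreb1. Under nutlin, Cd79b was the only call, higher in the mutants by 0.25 ± 0.08 (adjusted p = 0.0307), where 7.79% of all genes were called higher and 8.56% lower. The control had the lowest Cd79b library under nutlin in AH47A (169 CPM, mutants 183 to 237) and 287 (95.1 CPM, mutants 113 to 138). In 621 it did not (170 CPM, mutants 147 to 210). The mean difference of Cd79b was 0.16 without line 287 (adjusted p = 0.27) and 0.21 without AH47A (adjusted p = 0.281), and neither was called. By mutant it ran from 0.05 with R270H to 0.42 ± 0.10 with V170M, and V170M was the only single mutant with a call among the 9 genes under nutlin (Cd79b, adjusted p = 0.00386, where 8.74% of all genes were called higher).

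The mean response of the mutants minus that of the control gave 0 calls with edgeR and DESeq2 and 2 genes at an unadjusted edgeR p under 0.05, Rag2 (log2 0.73 ± 0.33, adjusted p = 0.233) and Cd79b (0.25 ± 0.11, adjusted p = 0.194). Among all genes 2.11% were called higher and 1.66% lower in that comparison. For single mutants, the Cd79b response was above that of the control with V170M (0.48 ± 0.14, adjusted p = 0.0461, where 2.07% of all genes were called higher), the only such call among the 9 genes. F tests over the 6 constructs gave 0 calls untreated (0 at an unadjusted p under 0.05, 0 with DESeq2, 0.0589% of all genes called) and 0 calls for the response (1 at an unadjusted p under 0.05, Cd79b, 0 with DESeq2, 0.0168% of all genes called).

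Within a line, single cultures differed more than these averages show. In 287 the surrogate light chain was highest with I192S (97.6 CPM of Vpreb1 and 186 of Igll1) and next with V170M (66.8 and 131 CPM), against 31.3 and 55.2 CPM in the control. After nutlin I192S (35.5 and 41.6 CPM) and V170M (26.6 and 32.8 CPM) were again the highest. In AH47A the order was another one. V170M had the lowest values (36.8 CPM of Vpreb1 and 106.5 of Igll1) and G280 the highest (86.0 and 217 CPM). Without AH47A the F test over constructs called Vpreb1 (adjusted p = 0.00412) and Igll1 (adjusted p = 2.78e-05) before treatment. The 6 untreated libraries of 621 held only 7 Vpreb1 and 8 Igll1 counts, so these calls rest almost wholly on 287. They cannot measure the spread between repeat cultures of a construct. With 1 culture for each construct in a line, construct and culture cannot be told apart. In 621 the untreated G280 library had the lowest value of the 6 for Rag1, Rag2, Cd79a, Cd79b, Cd22 and Blnk, for example 145 CPM of Rag1 against 272 to 344 CPM in the others.

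Across the 36 libraries, the genes that act as partners varied together, as a description over libraries that share lines and treatments. Pearson's r of log2 CPM was 0.989 for Vpreb1 and Igll1, 0.971 for Rag1 and Rag2 and 0.856 for Cd79a and Cd79b. On deviations from the means of the 6 groups, it was 0.703, 0.321 and 0.796. The pair Rag1 and Igll1 had r = -0.778 over all libraries and -0.211 within groups. Among all tested genes, the 3 most like Rag1 over the 36 libraries were Tln2 (r = 0.99), 3830406C13Rik (0.978) and Gpr132 (0.977), and those most like Rag2 were 3830406C13Rik (0.988), Kcnk5 (0.982) and Cisd3 (0.977). The genes most like Vpreb1 were Klhl41 and Lef1 (0.99 each) and Igll1, and those most like Igll1 were Vpreb1, Endod1 (0.989) and Myh10 (0.987). For Cd79a they were Mknk2 (0.957), Gmip and Cst3, for Cd79b Rhno1 (0.948), Dnlz and Ssbp4, and for Cd22 Epn1 (0.952), Dusp7 and Rara. For Blnk they were Dusp4 (0.905), Abca6 and Hells, and for Dntt, which had few counts, Rfxap (0.854), Reep6 and Rbm38.

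Other stage genes were read from lists chosen by name. Pax5, the factor that commits cells to the B lineage, lay between 108 and 144 CPM in every untreated library, and Ebf1 between 62.2 and 163 CPM. Kit, a growth factor receptor of pro-B cells, had 0 counts in all 36 libraries, which allows at most 0.283 to 0.555 CPM in a library. Il7r, the receptor of the cytokine that sustains pro-B and pre-B cells, had a mean of 227 CPM in 287, 108 in AH47A and 21.4 in 621 before treatment. Of 13 tested genes of the early stage list, 2 were higher and 9 lower in 621 than in AH47A (median log2 -0.48, all genes -0.02), and 1 was higher and 10 lower in 621 than in 287 (median -0.79, all genes -0.04). In 287 against AH47A, 5 were higher and 3 lower (median 0.16, all genes 0.01). Among all tested genes, 28.2% were called higher and 31.1% lower in 621 against AH47A, and 29.0% and 32.4% in 621 against 287. For 287 against AH47A the shares were 30.2% and 29.6%. The largest falls in 621 against AH47A were of Lef1, a transcription factor (log2 -10.24 ± 0.61), and Enpep, the BP-1 antigen of pre-B cells (-9.20 ± 0.52). Sox4 was lower by -3.58 ± 0.15. Vpreb2 had 277 counts in untreated AH47A and 0 in 621.

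Immunoglobulin genes were transcribed in all lines. Ighm, the heavy chain of IgM, had 1410 ± 40.5 RPKM in AH47A, 1360 ± 88.2 in 287 and 2270 ± 104 in 621 before treatment (mean ± SD, n = 6). Igkc, the kappa constant gene, had 1010 ± 44.0, 5870 ± 521 and 4270 ± 315 RPKM. Iglc1, a lambda constant gene, had 1140 ± 239 RPKM in AH47A, against 67.7 ± 43.0 in 287 and 3.37 ± 1.29 in 621. AH47A thus had both kappa and lambda 1 transcripts at like levels per base. Whether these transcripts are of rearranged genes was not tested, and lambda constant genes resemble each other, so that their counts are uncertain. Ighd, the heavy chain of IgD, was highest in 621 (78.1 ± 29.1 RPKM, against 14.3 ± 2.15 in AH47A and 5.34 ± 1.21 in 287), and 621 was above both (log2 2.40 ± 0.23 and 3.83 ± 0.26).

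Most tested genes of the mature B cell list were higher in 621 than in the other lines. Of 15 tested genes of that list, 12 were higher and 1 lower in 621 than in AH47A (median log2 1.91, all genes -0.02), and 8 were higher and 4 lower than in 287 (median 1.36, all genes -0.04). In 287 against AH47A 8 were higher and 4 lower (median 0.86, all genes 0.01). Among all tested genes, 28.2% were called higher and 31.1% lower in 621 against AH47A, and 29.0% and 32.4% in 621 against 287. For 287 against AH47A the shares were 30.2% and 29.6%. Cd74, the invariant chain of antigen presentation, was higher in 621 than in AH47A by log2 5.19 ± 0.57, Klf2 by 4.68 ± 0.26, Cd55 by 4.57 ± 0.18 and Ms4a1, which encodes CD20, by 4.24 ± 0.51. The level of Ms4a1 was still low, 4.47 ± 2.82 CPM in 621. Cr2 and Fcer2a, receptors of mature B cells, had at most 48 and 12 counts over the 6 libraries of any group.

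The list of germinal centre and plasma cell genes was mixed. Its 10 genes summed to a median of 126 CPM in untreated AH47A, 107 in 287 and 79.0 in 621. Xbp1 and Sdc1, which rise in plasma cells, had medians of 49.9 and 45.1 CPM in AH47A, 43.3 and 51.1 in 287 and 36.6 and 28.7 in 621. S1pr2, a receptor of germinal centre cells, had a median of 18.4 CPM in AH47A, 5.08 in 287 and 4.73 in 621. By contrast Prdm1, the regulator of plasma cell fate, Jchain, Tnfrsf17 and Gcsam had at most 30, 13, 5 and 5 counts over the 6 libraries of any group. After nutlin, 2 of the 5 tested genes of this list were higher and 1 lower in AH47A, 2 and 3 in 287 and 2 and 2 in 621. The shares of all tested genes were 22.4% and 21.7%, 35.2% and 37.8%, and 28.1% and 27.8%. Mybl1, a relative of Myb, rose in all 3 lines (log2 1.54 ± 0.13 in AH47A, 3.74 ± 0.14 in 287 and 2.08 ± 0.13 in 621). Bcl6 rose in all 3 as well (1.14 ± 0.26, 1.34 ± 0.33 and 1.97 ± 0.31). S1pr2 and Xbp1 fell in 287 and 621, and Sdc1 fell in AH47A and 287.

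Set beside the textbook order of stages, no line carried the full set of a single stage. AH47A had the surrogate light chain and Ighm with Rag1, Rag2 and Kit near or at 0, the combination given to large pre-B cells, but it also had light chain transcripts. Line 287 had the surrogate light chain, both Rag genes, Il7r and Igkc together, which places it among pre-B cells by these genes. Line 621 had the highest Rag1 and Rag2, with Ighm, Igkc and near 0 surrogate light chain, the combination given to small pre-B cells. It also had the highest Ighd and Cd22 and more of the mature list, which the textbook order gives to mature B cells. Its Igkc was below that of 287 (log2 -0.46 ± 0.08). Il2ra, a gene of the early stage list, had an untreated mean of 4.66 CPM in 621, 5.25 in AH47A and 21.7 in 287. Dntt and Kit, which mark the pro-B stage, were near or at 0 in all 3. Surface proteins and rearrangements were not measured, and the lines are transformed cells under a Myc transgene.

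Genes that work with the 9 members were also read after nutlin. In AH47A 22.4% of all tested genes were called higher and 21.7% lower. These shares were 35.2% and 37.8% in 287 and 28.1% and 27.8% in 621. Of 12 recombination repair partners, which join the ends that the recombinase cuts, 1 was higher and 3 lower in AH47A (median log2 0.02, all genes 0.00), 5 and 5 in 287 (median -0.04, all genes -0.03) and 4 and 2 in 621 (median -0.06, all genes -0.01). Lig4, the ligase of that step, fell in AH47A (log2 -1.02 ± 0.10) and 287 (-1.58 ± 0.10), and 621 gave -0.24 ± 0.11 (adjusted p = 0.0598). Atm, the kinase that senses the breaks, rose in all 3 lines, by 0.56 ± 0.08 in AH47A, 2.70 ± 0.08 in 287 and 0.62 ± 0.07 in 621. Before treatment, Lig4 was lower in 621, the line with the most Rag1, than in AH47A (-1.25 ± 0.10) or 287 (-1.76 ± 0.10).

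Of 13 early stage genes, 0 were higher and 8 lower after nutlin in AH47A (median log2 -0.51, all genes 0.00), 1 and 9 in 287 (median -1.02, all genes -0.03) and 0 and 5 in 621 (median -0.57, all genes -0.01). For these and the B lineage factors below, 22.4% of all tested genes were called higher and 21.7% lower in AH47A. These shares were 35.2% and 37.8% in 287 and 28.1% and 27.8% in 621. Vpreb3, which binds light chains in the cell, fell in all 3 lines (-0.93 ± 0.14 in AH47A, -1.02 ± 0.14 in 287 and -0.86 ± 0.14 in 621). Cd24a, a surface protein of early B cells, also fell in all 3 (-0.63 ± 0.09, -1.83 ± 0.10 and -0.57 ± 0.09). Lef1 fell in AH47A (-0.83 ± 0.28, adjusted p = 0.0205), and in 287 the change was -0.50 ± 0.29 (adjusted p = 0.122). Of 14 B lineage factors, 2 were higher and 9 lower in AH47A (median -0.30), 1 and 7 in 287 (median -0.27) and 3 and 6 in 621 (median -0.18). Tcf3, which encodes E2A, fell in all 3 lines (-0.67 ± 0.09 in AH47A, -0.62 ± 0.09 in 287 and -0.41 ± 0.09 in 621). Pou2af1, a coactivator of octamer factors, fell in all 3 as well (-0.56 ± 0.05, -0.85 ± 0.05 and -0.23 ± 0.05). Id3, an inhibitor of E proteins, rose in AH47A (0.67 ± 0.22, adjusted p = 0.0158) and fell in 287 (-2.68 ± 0.20) and 621 (-1.83 ± 0.17). Ebf1 fell in AH47A (-0.44 ± 0.14, adjusted p = 0.0126) and rose in 621 (0.57 ± 0.14, adjusted p = 0.00133), and 287 gave 0.14 ± 0.14 (adjusted p = 0.37).

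Among 21 tested genes of receptor signalling, 4 were higher and 8 lower after nutlin in AH47A (median log2 -0.13, all genes -0.002). The numbers were 7 and 9 in 287 (median -0.24, all genes -0.03) and 4 and 8 in 621 (median -0.12, all genes -0.01). For this and the next lists, 22.4% of all tested genes were called higher and 21.7% lower in AH47A. These shares were 35.2% and 37.8% in 287 and 28.1% and 27.8% in 621. Plcg2, the phospholipase that BLNK brings to the receptor, fell in AH47A (-0.51 ± 0.05), 287 (-0.75 ± 0.05) and 621 (-0.30 ± 0.05). Cd81, which encodes a tetraspanin of the cell surface, rose in all 3 lines (0.94 ± 0.15, 1.77 ± 0.13 and 0.51 ± 0.13). Before treatment 16 of the 21 receptor signalling genes were higher and 1 lower in 621 than in AH47A (median 0.57, all genes -0.02). There, 28.2% of all tested genes were called higher and 31.1% lower. Prkcb, a protein kinase C downstream of the receptor, was higher in 621 by 3.64 ± 0.22. The fitted value of Blk, a SRC family kinase, was larger (4.49 ± 1.24), but rested on 3 counts in AH47A and 103 in 621, of which 1 library gave 58. Among 7 inhibitory receptors and phosphatases, 1 was higher and 2 lower after nutlin in AH47A, 2 and 4 in 287 and 3 and 2 in 621. Fcgr2b, an inhibitory Fc receptor, rose in all 3 lines (0.73 ± 0.07, 0.86 ± 0.07 and 0.29 ± 0.07), while Cd22 fell. Siglecg, a relative of Cd22, fell in all 3 as well (-0.40 ± 0.16, adjusted p = 0.0384, -1.65 ± 0.16 and -0.95 ± 0.16). Of 6 tested immunoglobulin constant genes, 1 was higher and 0 lower in AH47A, 3 and 2 in 287 and 0 and 1 in 621. Ighm rose in 287 (0.58 ± 0.05), where Cd79a and Cd79b fell, and gave -0.08 ± 0.05 in AH47A and 0.01 ± 0.05 in 621. Igkc fell in 287 (-0.35 ± 0.08) and 621 (-0.70 ± 0.08) and gave 0.11 ± 0.08 in AH47A.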

How the data were processed

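The deposited values were raw read counts per gene, and the total RNA libraries were counted with featureCounts after bcl2fastq 1.8.4 on GRCm38 (mm10), per the submitters' processing notes. No source used here names the aligner or the strand setting. The 36 columns of the table were identical to the 36 separate files. Identifiers without a symbol (859) held 0.303% of counts and were kept. The members and gene lists were chosen with earlier results of these data known. The counts were fitted in edgeR 4.0.16 (R 4.3.3, TMM, filterByExpr with a minimum count of 10, robust quasi-likelihood fit). One fit of all 36 libraries held line by treatment and construct by treatment on 20 residual degrees of freedom (biological coefficient of variation 9.66%). Benjamini-Hochberg adjustment ran over the 11894 genes tested, with calls under 0.05. CPM uses TMM-scaled library sizes, and RPKM divides it by the table's gene length. Counting intervals are exact binomial at 95%. Libraries of 5404113 to 10718302 counts make 3 counts worth 0.283 to 0.555 CPM. The labels pair untreated and nutlin libraries through line and construct, and the pairs deviated together from their group means (r from 0.0957 to 0.491, over 0.1 in 17 of 18, with 16 matching their own construct best). A fit with that block is an alternative chosen once results were known. Alternatives were DESeq2 1.42.0, other terms, filters, scalings and leaving out constructs or lines. From each list the called genes of largest change, at most 4 a comparison, and genes that define stages were named, and the most like genes were the 3 with the highest r. No pair of libraries was identical. The script was tested on simulated data.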

Additional observations from a re-analysis of the deposited data

Results flagged for a closer look

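The nutlin response differed between the lines for 5 of the 9 genes by the F test of line by treatment (edgeR adjusted p = 0.00483 for Rag2, 0.0149 for Igll1, 0.00116 for Cd79a, 4.9e-08 for Cd79b and 9.54e-06 for Blnk). Among all tested genes 62.3% were called in that test, so the share of the 9 is near the background. The direction itself differed for Blnk, which fell in AH47A and rose in 621.

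In 4 of 54 combinations of gene and group, each of 6 libraries, a single library stood apart from the other 5. A rate of about 1 in 20 by chance is for independent groups. These combinations share the same 36 libraries, and some hold few counts. The untreated G280 library of 621 was low for Rag1 (145 CPM, the next 272) and for Cd79b (198 CPM, the next 253). The untreated R270H library of AH47A was low for Cd79a (204 CPM, the next 232). In 621 after nutlin, the G280 library had the only Vpreb1 count of its group (0.137 CPM, the others 0).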

How the results depend on the processing

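Of 1060 values of single members under alternative settings, 1003 kept their direction and side of the threshold, and none reversed a call. F tests have no direction, and the numbers of members called are not among the 1060. The number of members called in the AH47A response was 7 with a replicate block of line and construct, added after the data had been seen, which gained Rag1, Vpreb1 and Igll1. It also called Rag1 and Vpreb1 in the comparison of responses and changed no other call of a member in these comparisons. For the mean of the mutants under nutlin, the count of members was 0 with cell line as an additive term, 0 with no replicate block of cell line, and 0 to 2 leaving out a line. For constructs untreated it was 0 to 2 leaving out a line. Over all genes, the calls in the mean of the mutants under nutlin went from 1945 to 121 with cell line as an additive term, 0 without cell line terms and 973 to 1197 leaving out a line, and those in the response difference from 449 to 0, 0 and 3 to 79. Calls between constructs went from 7 to between 0 and 18 untreated, and from 2 to between 0 and 196 (DESeq2) for the response, and calls in the untreated mean of the mutants from 2 to 0 without line 287 and 1 with DESeq2 or without cell line terms. The cause was not tested. Depth limits Rag1 and Rag2 in AH47A, Vpreb1 and Igll1 in 621 and Dntt in every line, where groups held 1 to 75 counts.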
